A study of Caenorhabditis elegans with 15 samples.

Results

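The glutathione S-transferase genes (gst, with the omega-class gsto genes) and the UDP-glycosyltransferase genes (ugt) of C. elegans are described here across whole worms of 5 groups. Members are the genes whose symbol starts with gst, gsto or ugt and a number and that have a probe set annotated to that gene alone. This gave 107 of the 17118 genes that the array reads by a probe set of their own. Of these, 43 belong to the gst family (40 gst and 3 gsto) and 64 to the ugt family, and the families are given apart. Where a gene has several probe sets, the one with the highest mean over the 15 arrays stands for it.

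The study set candidate mimetics of dietary restriction beside a genetic model of it. Expression was measured in whole animals on Affymetrix arrays of the C. elegans genome, with 3 arrays for each of 5 groups. All worms were taken at the L4 moult, moved to plates with 2% DMSO (the vehicle), and collected 72 h later at 20 °C. Wild-type N2 worms had vehicle alone (N2 controls), rapamycin, an inhibitor of the TOR kinase, or allantoin, a product of uric acid breakdown. Mutants of eat-2 (strain DA465), which lack a nicotinic acetylcholine receptor subunit of the pharynx and so pump and eat less, had vehicle alone (eat-2 controls) or rapamycin. No arrays of eat-2 worms on allantoin were analysed here. Nothing states that the 3 arrays of a group came from separate cultures, so the p-values measure only the spread between these samples.

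Glutathione S-transferases join the tripeptide glutathione to reactive compounds, among them products of lipid peroxidation, and UDP-glycosyltransferases join a sugar from a UDP-sugar to small lipid-soluble molecules. Both steps make a compound more soluble in water and ready for export by ABC transporters, which is why the families are counted as phase II of detoxification. In C. elegans many of these genes are active in the intestine, and several gst genes, gst-4 first among them, are known targets of the stress factor SKN-1. Both families have grown by local duplication, so that many members lie beside each other in the genome.

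Values are log2 signals of probe sets, each a set of short probes against 1 transcript, so that a difference of 1 is 2-fold. Levels were not compared between genes. A probe set counts as dim where its mean over 15 arrays lies under 5.138, below which 25% of probe sets lie, and 5 gst and 10 ugt genes were dim. Another 7 genes of the families (gst-25, gst-34, gst-35, gst-37, ugt-34, ugt-49 and ugt-65) have no probe set of their own here. The probe sets of 7 gst and 12 ugt genes carry a mark for possible binding of related transcripts, which in families of close copies leaves the split between them uncertain. The word called is kept for genes that changed by more than 2-fold at a limma p below 0.05 before adjustment. The study used the same cut-offs but other software, the Affymetrix Transcriptome Analysis Console, so its counts need not match those given here. Numbers of genes at an adjusted p (Benjamini-Hochberg, over all 22548 probe sets, below 0.05) are given as well. Among the members called below, those with a marked probe set are gst-20, gst-33, ugt-6, ugt-12, ugt-17, ugt-29, ugt-46, ugt-50, ugt-51 and ugt-64.

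Both families varied more between groups than most probe sets did. The difference between the highest and the lowest group mean passed 2-fold in 22 of 43 gst genes and 32 of 64 ugt genes, against 25.4% of all probe sets. The median of that difference was 1.07 on the log2 scale for gst, 0.96 for ugt and 0.54 for all probe sets. Dim probe sets make up 25% of all, against 5 of 43 gst and 10 of 64 ugt genes. The N2 controls, uneven in these genes, also enter the group means. The part of either in the difference was not tested. Rapamycin-treated N2 worms had the highest mean in 15 gst genes (34.9%) and 25 ugt genes (39.1%), near the 31.8% of all probe sets, and the lowest in 10 gst genes (23.3%) and 17 ugt genes (26.6%), against 43.2% of all. The N2 controls had the highest mean in 11 gst genes (25.6%) and 5 ugt genes (7.81%), against 5.01% of all. Controls of eat-2 had the lowest mean in 16 of 43 gst genes (37.2%) and 17 of 64 ugt genes (26.6%), against 12.4% of all probe sets. At the other end, 25 gst genes (58.1%) and 38 ugt genes (59.4%) were called in none of the 5 comparisons of pairs of groups, against 77.6% of all probe sets.

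The N2 controls were uneven in these genes, and they enter 3 of the 5 comparisons of groups as well as the interaction. Their median SD was 0.589 over gst genes and 0.386 over ugt genes, against 0.210 over all probe sets. In the other 4 groups it lay between 0.119 and 0.136 for gst and between 0.104 and 0.228 for ugt. The 3 control arrays differed by over 2-fold in 25 gst and 22 ugt genes, or 58.1% and 34.4%, against 14.1% of all probe sets. Control 2 was the highest of the 3 in 27 of 43 gst genes and control 3 the lowest in 27. For all probe sets those shares were 33.7% and 26.8%. The widest range among gst genes was that of gst-10, with 9.95, 10.45 and 8.002 in controls 1, 2 and 3. Among ugt genes it was that of ugt-22, with 11.38, 10.95 and 8.75. By eye, gst-12, gst-15, gst-31, gst-39 and gst-3 were high in control 2 alone, while gst-10, gst-24, gst-4, gst-6, ugt-22 and ugt-26 were low in control 3 alone.

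**Figure D1:**
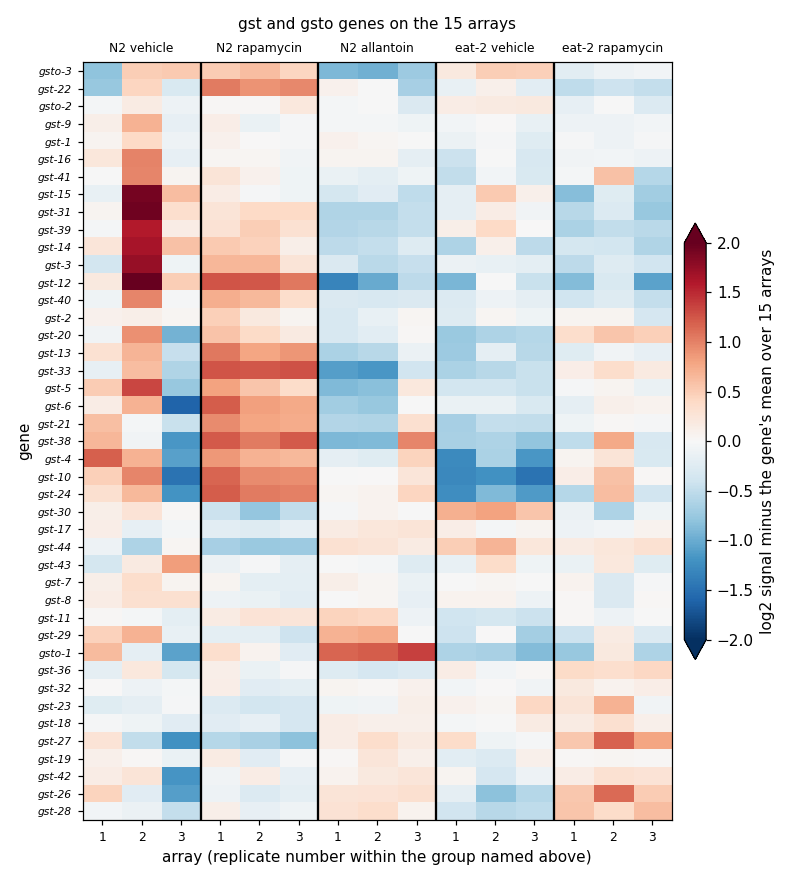
Log2 signal of 43 gst and gsto genes (rows) on the 15 arrays (columns), each minus the gene's mean over all arrays; red is above and blue below that mean, colours stop at 2, and rows are ordered by likeness. N2 control 2 was the highest control in 27 genes and control 3 the lowest in 27, while the 3 arrays of rapamycin-treated N2 worms lay close together.

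Tissue markers differed between the same arrays. The mean level of 8 intestine markers was 9.41, 9.80 and 9.02 in N2 controls 1, 2 and 3, and between 9.36 and 9.42 in the eat-2 controls. For 7 hypodermis markers it was 9.62, 10.18 and 9.28 in the N2 controls. The widest gap was that of 8 sperm markers, with 7.60, 9.45 and 9.02, where control 1 was lowest. Muscle markers read 9.84, 10.32 and 9.35, neuron markers 8.93, 9.63 and 9.11, and germline markers 11.97, 11.30 and 11.66. In RNA of whole worms, fewer cells of a type and less RNA per cell cannot be told apart. The part of these tissues in the spread of the gst and ugt genes was not tested. None of the 49 markers of intestine, hypodermis, muscle, neuron, germline and sperm was dim.

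In N2 worms on rapamycin, 4 of 43 gst genes were called higher and 0 lower, and 9 of 64 ugt genes higher and 2 lower, against 8.41% of all probe sets called in either direction (5.15% higher, 3.26% lower). At the adjusted p, 2 gst and 8 ugt genes passed, against 9.38% of all. A single fit of all 15 arrays passed 9 and 23, and the unmoderated test 0 and 0. Of all 22548 probe sets they passed 7785 and 10. The arrays of the groups did not overlap in 14 gst and 30 ugt genes, or 32.6% and 46.9%, against 39.9% of all. Median changes were 0.095 for gst and 0.08 for ugt, against -0.018 for all probe sets. With each array centred on its median they were -0.009 and -0.025, against -0.123 for all probe sets. At the adjusted p, leaving out 1 array gave between 0 and 10 gst genes and between 0 and 18 ugt genes, the most without N2 control 2. Of all 22548 probe sets between 0 and 6889 passed, again the most without N2 control 2.

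Among the ugt genes, ugt-57, ugt-39 and ugt-66 changed most. The level of ugt-57 was 5.88, 5.78 and 5.50 in the N2 controls and 7.47, 7.98 and 7.69 on rapamycin. The change was 2.00 (SE 0.17, adjusted p = 0.00781) by limma, and no array of either group entered the range of the other. Lack of overlap was part of the rule that picked the genes with the largest changes, so it adds no support for them. For ugt-66 the controls read 7.11, 7.22 and 6.76 and the treated worms 8.95, 8.94 and 8.66, a change of 1.82 (SE 0.16, adjusted p = 0.00781). Here too the groups lay apart. The controls of ugt-39 read 8.73, 8.52 and 7.43, with control 3 lowest, and rapamycin gave 10.12, 10.26 and 10.19, a change of 1.97 (SE 0.33, adjusted p = 0.031). The most even of the called genes was ugt-33, with 5.58, 5.61 and 5.66 in controls and 6.82, 7.06 and 6.92 on rapamycin. Its change of 1.32 (SE 0.1, adjusted p = 0.00728) had the lowest adjusted p of the 107 members in this comparison. Also higher and called were ugt-31 (1.60, adjusted p = 0.0469), ugt-25 (1.06, adjusted p = 0.0361), ugt-29 (1.39), ugt-9 (1.17) and ugt-41 (1.11), the last 3 with adjusted p of 0.0742, 0.0685 and 0.0791. Leaving out N2 control 1 took the calls of ugt-9 and ugt-41, and leaving out control 3 those of ugt-25, ugt-29 and ugt-41.

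Only ugt-63 and ugt-47 were called lower. The level of ugt-63 was 7.76, 7.25 and 7.39 in controls and 6.06, 5.86 and 6.17 on rapamycin, a change of -1.43 (SE 0.16, adjusted p = 0.0157). That of ugt-47 went from 9.07, 9.59 and 9.47 to 8.22, 7.96 and 8.01, a change of -1.31 (SE 0.16, adjusted p = 0.0177). In both genes the arrays of the groups did not overlap, which was part of the rule that picked them.

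**Figure D2:**
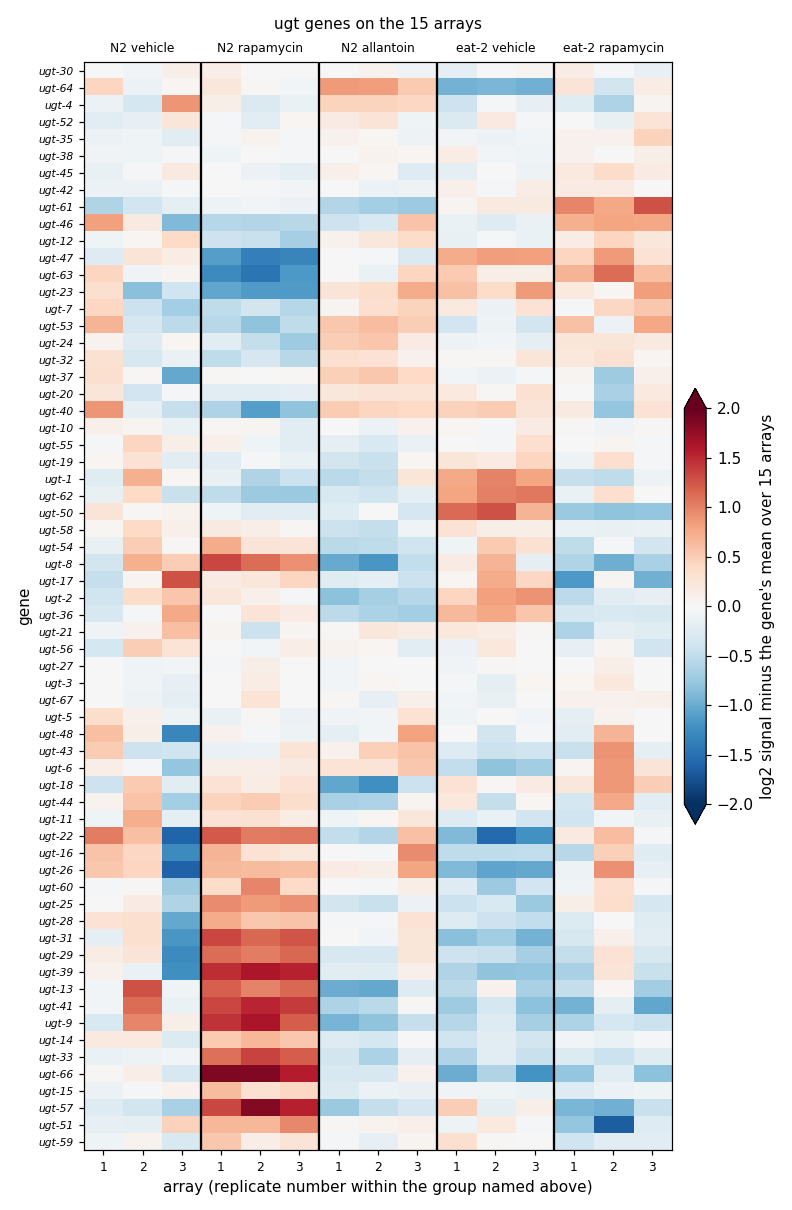
Log2 signal of 64 ugt genes (rows) on the 15 arrays (columns), each minus the gene's mean over all arrays; colours and row order as in the heat map of gst genes. Rapamycin-treated N2 worms had the highest group mean in 25 of the 64 genes and the lowest in 17.

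The called gst genes were gst-38, gst-33, gst-22 and gst-24, all higher. For gst-33 the controls read 7.56, 8.36 and 7.13 and the rapamycin arrays 8.995, 8.98 and 9, a change of 1.31 (SE 0.3, adjusted p = 0.0481). It was the one called gst gene that also passed the adjusted p. The level of gst-22 rose from 7.83, 9.02 and 8.28 to 9.63, 9.49 and 9.55, a change of 1.18 (SE 0.29, adjusted p = 0.0542). Changes of gst-38 and gst-24 were 1.36 (SE 0.44, adjusted p = 0.0906) and 1.16 (SE 0.46, adjusted p = 0.142). The call of gst-22 was lost without N2 control 1, and those of gst-38 and gst-24 without control 3, which left 2 of the 4 calls, or without rapamycin array 1 or 3 (gst-24 also array 2). The other gst gene past the adjusted p was gst-30, lower by less than 2-fold: 8.47, 8.62 and 8.37 in controls and 7.92, 7.57 and 7.85 on rapamycin, a change of -0.71 (SE 0.13, adjusted p = 0.0351). Hypodermis markers were called higher in 5 of 7 cases (median change 1.395), intestine markers in 3 of 8 (0.668, from -0.611 to 1.184) and sperm markers in 4 of 8 (1.471). Of the germline markers 1 of 9 was called lower (median -0.666, from -1.163 to 0.465). Their mean level was 11.30 to 11.97 in controls and 11.04 to 11.12 on rapamycin. Muscle markers (median 0.612) and neuron markers (0.349) had 0 calls. The mean hypodermis level was 9.28 to 10.18 in controls and 10.76 to 11.05 on rapamycin. The part of these markers' tissues in the changes of gst and ugt genes was not tested.

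In eat-2 worms on rapamycin, 4 gst genes were called higher and 0 lower, and 3 ugt genes higher and 4 lower, against 3.06% of all probe sets (1.15% higher, 1.91% lower). The 3 arrays of each group lay closer together than the N2 controls did, and 15 gst and 18 ugt genes passed the adjusted p, against 13.8% of all. With 1 array left out, between 6 and 16 gst and between 8 and 16 ugt genes passed. Of all 22548 probe sets between 1004 and 3229 passed. The arrays did not overlap in 23 gst genes (53.5%) and 26 ugt genes (40.6%), against 36.7% of all. Median changes were 0.16 for gst, 0.063 for ugt and 0.027 for all probe sets.

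The gst gene with the largest change was gst-10, whose enzyme conjugates the lipid peroxidation product 4-hydroxynonenal. It read 8.20, 8.26 and 8.002 in eat-2 controls and 9.61, 10.06 and 9.50 on rapamycin, a change of 1.57 (SE 0.16, adjusted p = 0.00375). A probe set shared by gst-10 and F56A4.3 gave 1.52 (adjusted p = 0.00352). The levels of gst-26 were 7.80, 7.15 and 7.41 and 8.51, 9.10 and 8.47, those of gst-20 9.33, 9.45 and 9.50 and 10.43, 10.62 and 10.55. Their changes were 1.24 (SE 0.22, adjusted p = 0.0155) and 1.11 (SE 0.087, adjusted p = 0.00247). The stress reporter gene gst-4 rose from 10.25, 10.89 and 10.37 to 11.58, 11.79 and 11.23, a change of 1.03 (SE 0.21, adjusted p = 0.0218). In all 4 genes every treated array lay above every control, which for gst-26 and gst-20 was part of the rule that picked them. The call of gst-4 sits at the 2-fold bound and was lost without eat-2 control 1, eat-2 control 3 or the second rapamycin array, and after cyclic loess. Just under the bound, gst-28 rose by 1.00 (SE 0.096, adjusted p = 0.00342). Lower at the adjusted p but by less than 2-fold were gst-30 (-0.97), gst-39 (-0.73), gsto-3 (-0.51) and gst-22 (-0.38).

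Of the ugt genes, ugt-50 changed most. It read 9.97, 10.12 and 9.53 in eat-2 controls and 8.10, 8.03 and 8.07 on rapamycin, a change of -1.80 (SE 0.15, adjusted p = 0.00283), and the groups lay apart by more than 1 log2 unit. Its other 2 probe sets gave changes of -0.95 and -1.17, of the same sign. Elsewhere the 3 probe sets did not all share a sign. Between rapamycin and allantoin in N2 the set used here gave 0.02 and the others -1.48 and 0.19. On allantoin in N2 they gave -0.30, 0.74 and -0.13 in the same order. In eat-2 against N2 they gave 0.92, 1.27 and 0.67, so the call there depends on the set. The neighbouring genes ugt-1 and ugt-2 fell together, ugt-1 from 8.28, 8.52 and 8.31 to 7.06, 7.01 and 7.42 and ugt-2 from 8.10, 8.49 and 8.57 to 7.15, 7.47 and 7.51. Changes were -1.20 (SE 0.13, adjusted p = 0.00452) and -1.01 (SE 0.15, adjusted p = 0.00999). The call of ugt-2, at the 2-fold bound, was lost without eat-2 control 2, eat-2 control 3 or the first rapamycin array, and with median centring or cyclic loess. The fourth gene called lower, ugt-17, had overlapping arrays and an adjusted p of 0.078, and it was not called without eat-2 control 2 or rapamycin array 1 or 3. Called higher were ugt-22, with 9.47, 8.80 and 9.13 in controls and 10.55, 10.97 and 10.31 on rapamycin and a change of 1.48 (SE 0.22, adjusted p = 0.00923), ugt-26 (1.20, SE 0.28, adjusted p = 0.0354) and ugt-6 (1.06, SE 0.21, adjusted p = 0.0224). The second rapamycin array was the highest in all 3, and without it ugt-26 and ugt-6 were not called (ugt-6 nor without eat-2 control 2). Sperm markers were called lower in 6 of 8 cases and hypodermis markers higher in 2 of 7. The sperm level was 7.26 to 8.77 in eat-2 controls and 6.46 to 6.81 on rapamycin. Their part was not tested.

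**Figure D3:**
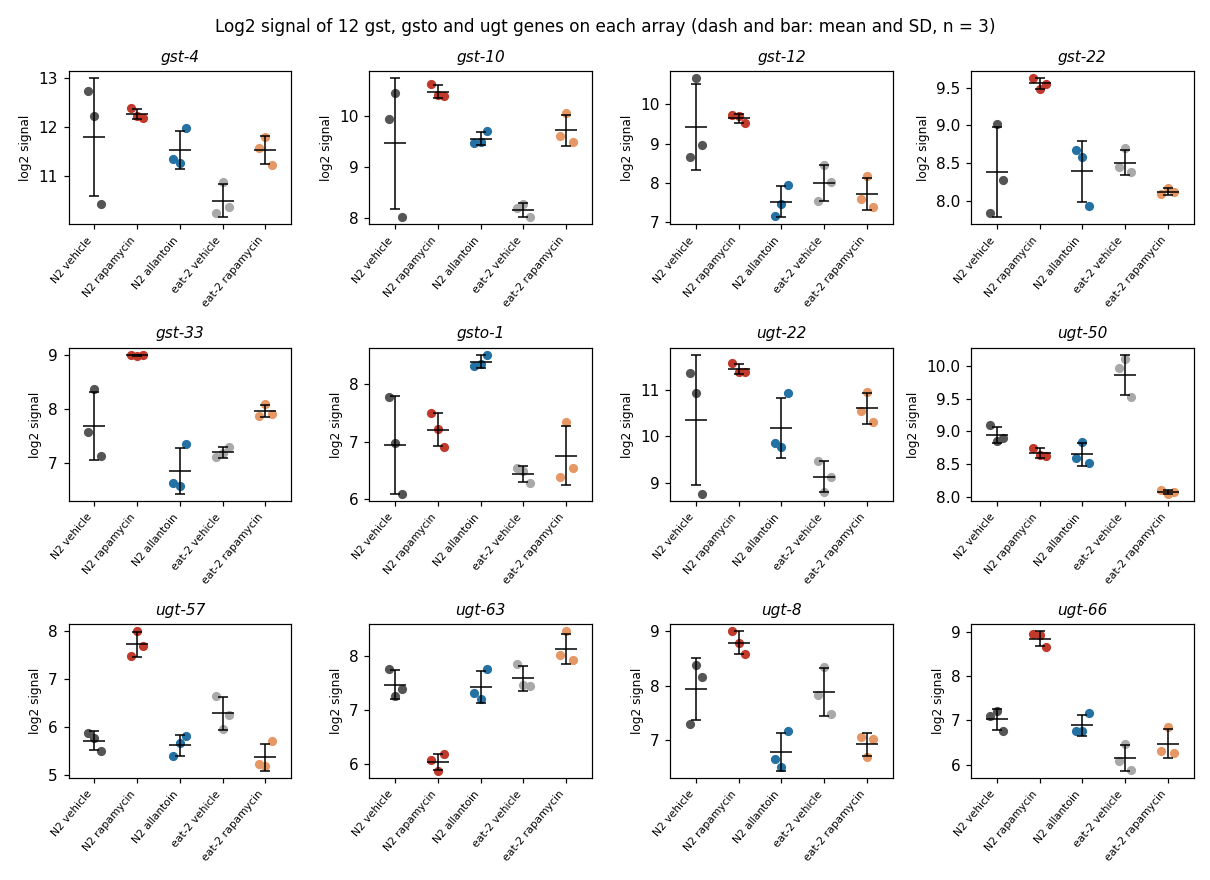
Log2 signal of 12 genes on each array by group, with the mean and SD of 3 arrays (dash and bar). In gst-4, gst-10 and ugt-22 the third N2 control lay more than 1 log2 unit under the others, and in ugt-57 and ugt-66 the rapamycin-treated N2 worms stood above every other array.

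Whether rapamycin acted differently in the strains was tested as the interaction, the change in eat-2 minus the change in N2, on 12 arrays. Past the adjusted p were 2 gst genes (4.65% of the family) and 19 ugt genes (29.7%), against 24.4% of all probe sets. With 1 array left out, between 2 and 11 gst and between 12 and 27 ugt genes passed. Of all 22548 probe sets between 3267 and 8513 passed. Called were 1 gst gene higher and 1 lower, and 6 ugt genes higher and 9 lower, against 13.7% of all probe sets (5.25% higher, 8.41% lower). No test compared the families with each other. In 12 of the 19 ugt genes the changes in the strains had opposite signs, 6 each way, against 87.1% of all probe sets past the same adjusted p. Several of these changes were close to 0 in 1 strain (ugt-36, ugt-64 and ugt-15 among them), and with median centring or cyclic loess 10 of the 19 had opposite signs.

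The widest difference was that of ugt-57, which rose by 2.00 in N2 and fell by 0.91 on the log2 scale in eat-2. Its levels in eat-2 were 6.64, 5.96 and 6.25 in controls and 5.24, 5.19 and 5.70 on rapamycin. The interaction was -2.91 (SE 0.29, adjusted p = 0.000602). The reverse was seen in ugt-63, whose change was -1.43 in N2 and 0.54 in eat-2, an interaction of 1.98 (SE 0.25, adjusted p = 0.00168). For ugt-8 the changes were 0.85 and -0.97 (-1.81, SE 0.4, adjusted p = 0.0117), for ugt-51 0.73 and -0.92 (-1.65, SE 0.43, adjusted p = 0.0211), and for ugt-46 -0.61 and 0.93 (1.54, SE 0.44, adjusted p = 0.0304). The second probe set of ugt-46 gave 1.41 (adjusted p = 0.0248).

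Other genes moved mainly in 1 strain. In ugt-33 the changes were 1.32 in N2 and 0.10 in eat-2 (interaction -1.22, SE 0.15, adjusted p = 0.00162), in ugt-66 1.82 and 0.32 (-1.50, SE 0.28, adjusted p = 0.00616), and in ugt-39 1.97 and 0.45 (-1.52, SE 0.44, adjusted p = 0.0307). In ugt-50 they were -0.29 and -1.80 (-1.52, SE 0.19, adjusted p = 0.00162). Of its other 2 probe sets, 1 gave -1.23 (adjusted p = 0.00904) and 1 gave -0.20 (adjusted p = 0.701). The rest of the 19 ran from -1.14 (ugt-9) to 1.03 (ugt-47). Among gst genes, gst-22 rose in N2 (1.18) and fell slightly in eat-2 (-0.38), an interaction of -1.56 (SE 0.33, adjusted p = 0.00942). The change of gst-28 was 0.17 in N2 and 1.00 in eat-2 (0.82, SE 0.18, adjusted p = 0.0117). The gst gene called higher, gst-26, had an adjusted p of 0.0975 and lost its call without any of 7 arrays, N2 controls 1 and 2 among them. Of the called ugt genes, ugt-9 and ugt-53 lost the call without N2 control 1, and ugt-12, ugt-47, ugt-64 and ugt-41 without any of 4 to 6 arrays. The number of called gst genes was 8 without N2 control 3 and 5 without control 2, against 3040 and 4272 of all 22548 probe sets. Sperm markers were called lower in 7 of 8 cases and germline markers higher in 5 of 9. Of 7 hypodermis markers 3 were called lower and 1 higher, and 1 marker each of intestine, muscle and neuron was called lower. The part of these tissues was not tested.

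**Figure D4:**
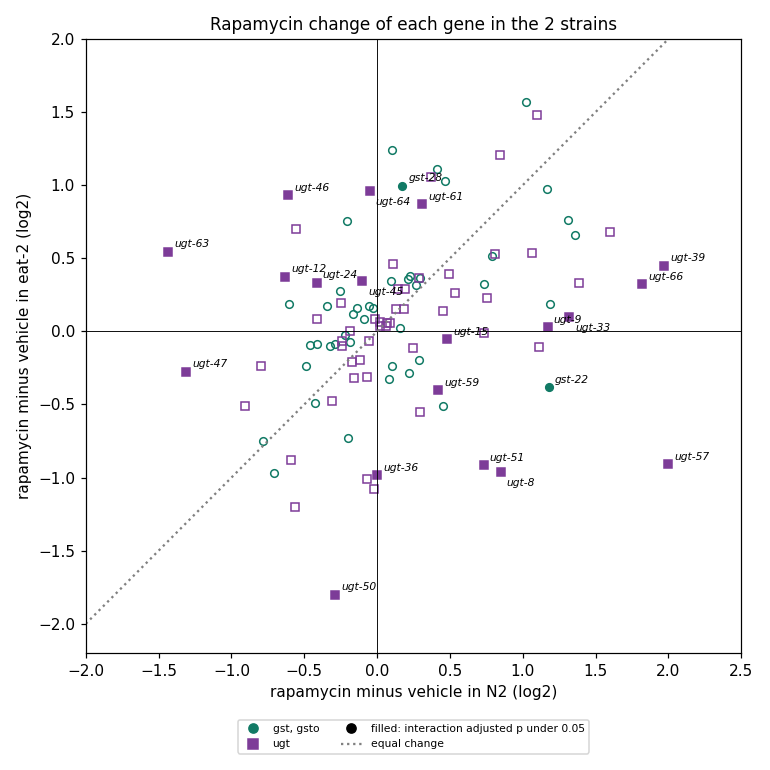
Rapamycin change (log2, treated minus vehicle) of each of the 107 genes in N2 (horizontal) and eat-2 (vertical); circles are gst and gsto, squares ugt, filled and named where the interaction had an adjusted p under 0.05, and the dotted line marks equal change. Filled points are 2 gst and 19 ugt genes, with ugt-57 at the right and ugt-63 at the left.

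In N2 worms on allantoin, 1 gst gene was called higher and 4 lower, and 0 ugt genes higher and 2 lower, against 4.05% of all probe sets (0.891% higher, 3.16% lower). At the adjusted p no gene of either family passed in limma, nor did any other probe set, while a single fit of all 15 arrays passed 7 gst and 8 ugt genes. At an unadjusted p under 0.05 alone there were 10 gst and 12 ugt genes, or 23.3% and 18.8%, against 19.8% of all. The arrays did not overlap in 14 gst genes (32.6%) and 16 ugt genes (25%), against 28.8% of all. Median changes were -0.167 for gst, -0.029 for ugt and 0.048 for all probe sets. With each array centred on its median they were -0.066, 0.071 and 0.149.

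The omega-class gene gsto-1 was the member called higher. Its levels were 7.77, 6.97 and 6.08 in controls and 8.31, 8.35 and 8.52 on allantoin, a change of 1.45 (SE 0.41, adjusted p = 0.236). Each allantoin array lay above each control, and the call held without any single array, with changes of 1.02 to 1.87. The called gst genes that were lower, gst-12, gst-31, gst-14 and gst-39, each had their highest control value in control 2. Controls of gst-12 read 8.66, 10.68 and 8.96 and allantoin arrays 7.15, 7.46 and 7.94, a change of -1.92 (SE 0.55, adjusted p = 0.236), which stayed called without any single array. For gst-14 the values were 6.27, 7.68 and 6.60 and 5.50, 5.55 and 5.77 (-1.24, SE 0.36, adjusted p = 0.236), and for gst-31 6.89, 8.78 and 7.18 and 6.24, 6.24 and 6.36 (-1.34, SE 0.48, adjusted p = 0.238). The change of gst-39 was -1.10 (SE 0.42, adjusted p = 0.244). Without control 2 the calls of gst-14, gst-31 and gst-39 were lost, those of gst-31 and gst-39 also without any single allantoin array. The ugt genes called lower were ugt-8, from 7.29, 8.38 and 8.16 to 6.65, 6.50 and 7.17 (-1.16, SE 0.32, adjusted p = 0.236), and its near neighbour ugt-13 (-1.14, SE 0.42, adjusted p = 0.24). Neither was called without control 2, nor ugt-13 without the first or second allantoin array. Without control 1 there were 8 gst and 6 ugt genes called, and 6 and 11 passed the adjusted p. Of all 22548 probe sets, 2047 were called and 4606 passed the adjusted p in that setting. Sperm markers were called lower in 6 of 8 cases, with a mean level of 7.60 to 9.45 in controls and 6.53 to 7.33 on allantoin. Neuron markers were called lower in 2 of 9 cases (changes of -1.24 to -0.05) and muscle markers in 1 of 8, and the 9 germline markers, none called, had changes of 0.205 to 0.763. Their part was not tested.

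The drugs can also be set against each other in N2 worms, with no use of the controls. Each drug was at the dose the study used, so the treatments are compared as given. On rapamycin, 9 gst genes were called higher than on allantoin and 1 lower, and 13 ugt genes higher and 5 lower. With each array centred on its median the gst counts were 6 and 3 and the ugt counts 11 and 6. After cyclic loess they were 12 and 2 for gst and 14 and 4 for ugt. Of all probe sets 4611 were called in the main fit, 58.3% of them higher. With centring 4929 were called (42.1% higher), and after cyclic loess 4423 (66% higher). In the main fit the background was 20.4% of all probe sets (11.9% higher, 8.53% lower). The families' shares in either direction were 23.3% and 28.1%. By direction, 20.9% of gst and 20.3% of ugt genes were called higher, and 2.33% and 7.81% lower. At the adjusted p 30 gst and 40 ugt genes passed, against 61.3% of all. The arrays did not overlap in 31 gst and 42 ugt genes (72.1% and 65.6%), against 68.2% of all. Median differences were 0.225 for gst, 0.08 for ugt and -0.068 for all probe sets. With each array centred on its median the family medians were 0.02 and -0.125, against -0.273 for all probe sets.

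Among gst genes gst-33 and gst-12 differed most. With the rapamycin values of gst-33 given above, allantoin arrays read 6.63, 6.57 and 7.35, a difference of 2.14 (SE 0.19, adjusted p = 1.68e-05). For gst-12 rapamycin arrays read 9.73, 9.70 and 9.52, a difference of 2.13 (SE 0.18, adjusted p = 1.36e-05). Next came gst-38 at 1.44 (SE 0.44, adjusted p = 0.0196), where allantoin array 3 (9.75) lay close to the rapamycin arrays. Also higher on rapamycin were gst-6 (1.42), gsto-3 (1.38), gst-13 (1.35), gst-22 (1.16), gst-21 (1.11) and gst-5 (1.07). The member lower on rapamycin was gsto-1, with 7.49, 7.23 and 6.91 against 8.31, 8.35 and 8.52 on allantoin, a difference of -1.18 (SE 0.14, adjusted p = 0.000113). Among ugt genes ugt-9, ugt-57 and ugt-8 led. The level of ugt-9 was 8.58, 8.77 and 8.35 on rapamycin and 6.21, 6.34 and 6.68 on allantoin, a difference of 2.16 (SE 0.15, adjusted p = 4.34e-06). Those of ugt-57 and ugt-8 were 2.09 (SE 0.15, adjusted p = 5.65e-06) and 2.01 (SE 0.18, adjusted p = 1.77e-05). On the lower side were ugt-23, with 8.69, 8.60 and 8.59 against 9.98, 10.07 and 10.46 (-1.55, SE 0.13, adjusted p = 1.22e-05), ugt-63 (-1.39), ugt-40 (-1.28), ugt-53 (-1.17) and ugt-47 (-1.16). With 1 array left out, between 8 and 11 gst and between 17 and 19 ugt genes were called. Without allantoin array 2 the calls of gst-5, gst-21 and ugt-18 were lost, without array 1 those of gst-5 and gst-21, without array 3 that of gst-22, and without rapamycin array 1 that of gst-5. Of the tissue markers, 7 of 8 sperm, 5 of 7 hypodermis, 4 of 8 intestine, 4 of 8 muscle and 5 of 9 neuron markers were called higher, while 6 of 9 germline markers and 1 hypodermis marker (col-19, -1.29) were called lower. The mean sperm level was 9.92 to 10.24 on rapamycin and 6.53 to 7.33 on allantoin. Their part was not tested.

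**Figure D5:**
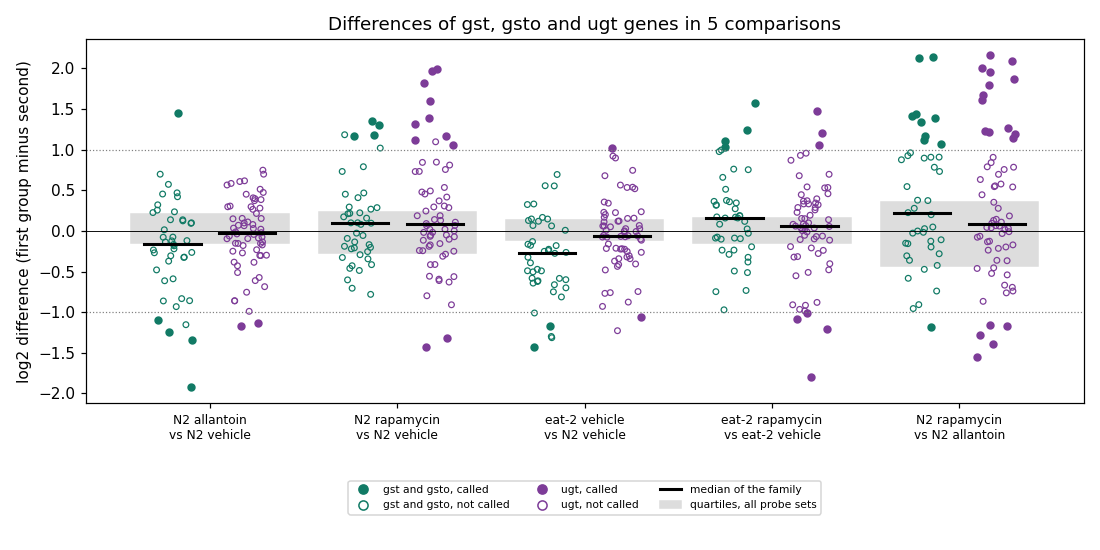
Log2 differences of gst with gsto genes (green) and ugt genes (purple) in 5 comparisons; filled points were called, short black lines are family medians, grey boxes the quartiles of all 22548 probe sets, and dotted lines mark 2-fold. Of the 5, rapamycin against allantoin in N2 had the most called members (10 gst, 18 ugt), and 3 of the comparisons share the N2 controls.

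Between eat-2 and N2 worms without a drug, 0 gst genes were called higher and 2 lower, and 1 ugt gene higher and 1 lower, against 1.52% of all probe sets (0.705% higher, 0.812% lower). No member passed the adjusted p in limma, against 0.0399% of all probe sets, though 1 gst and 6 ugt genes did in a single fit of all 15 arrays, and 8 gst and 12 ugt genes had an unadjusted p under 0.05 (18.6% and 18.8%, against 7.59% of all). The median change of gst genes was -0.276, that of ugt genes -0.057 and that of all probe sets 0.023. A lower mean in eat-2 was seen in 30 of 43 gst genes (30 with each array centred on its median and 31 after cyclic loess). The share with a higher mean was 30.2% for gst, against 55.3% of all probe sets. The median over gst genes of the signal minus the gene's mean was 0.105, 0.391 and -0.148 in N2 controls 1, 2 and 3. In the eat-2 controls it was -0.177, -0.044 and -0.197, a range that holds N2 control 3. The arrays did not overlap in 11 gst genes (25.6%) and 12 ugt genes (18.8%), against 14.4% of all. The called gst genes were again gst-12 and gst-14, with 7.55, 8.46 and 8.02 and 5.41, 6.13 and 5.50 in eat-2 controls. Their changes were -1.43 (SE 0.56, adjusted p = 0.643) and -1.17 (SE 0.4, adjusted p = 0.585). Neither was called without N2 control 2, nor without eat-2 control 1 or 3, and gst-12 not without N2 control 3 or eat-2 control 2. For ugt-62, called higher, N2 controls read 9.21, 9.76 and 8.91 and eat-2 controls 10.15, 10.37 and 10.41, a change of 1.02 (SE 0.22, adjusted p = 0.38). For ugt-64, called lower, the values were 9.72, 9.17 and 9.33 and 8.35, 8.37 and 8.33 (-1.06, SE 0.15, adjusted p = 0.175), and the eat-2 arrays lay within 0.04 of each other. The call of ugt-64 was lost without N2 control 1, and that of ugt-62 without N2 control 1 or 3 or eat-2 control 2 or 3. Without N2 control 3 the counts were 6 gst and 5 ugt genes, all lower, without N2 control 1 they were 4 and 3, and without eat-2 control 1 there were 0 gst and 2 ugt genes. Over all 22548 probe sets the counts were 454, 1144 and 196 in the same order. Hypodermis markers were called lower in 2 of 7 cases, with a mean level of 8.83 to 9.15 in eat-2 controls, and sperm markers in 1 of 8. Their part was not tested.

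Several genes with known roles were followed through all groups. The mean of gst-4 was 12.27 (SD 0.11) on rapamycin in N2, 11.80 (SD 1.2) in N2 controls, 11.54 (SD 0.38) on allantoin, 11.53 (SD 0.28) on rapamycin in eat-2 and 10.50 (SD 0.34) in eat-2 controls. The single N2 controls (12.73, 12.23 and 10.44) spanned this whole order, and no comparison with them was called. The step from allantoin to rapamycin in N2 passed the adjusted p at 0.73 (SE 0.17, adjusted p = 0.00589), as did that from vehicle to rapamycin in eat-2. In gst-10 the order was 10.49 on rapamycin in N2, 9.72 on rapamycin in eat-2, 9.56 on allantoin, 9.47 in N2 controls and 8.15 in eat-2 controls. Rapamycin exceeded allantoin in N2 by 0.93 (SE 0.11, adjusted p = 7.69e-05). In ugt-22 it was 11.46 on rapamycin in N2, 10.61 on rapamycin in eat-2, 10.36 in N2 controls, 10.19 on allantoin and 9.13 in eat-2 controls, and rapamycin exceeded allantoin by 1.27 (SE 0.27, adjusted p = 0.00334). Small differences were seen in gst-1, whose group means ran from 12.34 to 12.58, and in gst-7, from 12.65 to 12.95. For gst-42, the maleylacetoacetate isomerase of tyrosine breakdown, the means ran from 9.42 in N2 controls, where control 3 read 8.49, to 9.91 in eat-2 on rapamycin. None of these 3 was called in any comparison.

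Some neighbouring genes moved alike and others did not. In the order of protein-coding genes of the assembly WBcel235, 22 measured gst genes lie in 5 runs of direct neighbours and 30 ugt genes in 10 runs, the longest with 9 gst and 7 ugt genes. Within the run of 9, gst-15, gst-14 and gst-12 changed by -1.15, -1.24 and -1.92 on allantoin, while gst-19, gst-17 and gst-18 changed by 0.12, 0.24 and 0.23. In another run gst-26, gst-27 and gst-28 rose by 1.24, 0.75 and 1.00 on rapamycin in eat-2, while gst-39 of the same run changed by -0.73. In the run of 7 ugt genes, ugt-8, ugt-9 and ugt-13 differed by 2.01, 2.16 and 1.87 between rapamycin and allantoin. The others of that run, ugt-14, ugt-11, ugt-67 and ugt-10, differed by 0.78, 0.18, 0.11 and -0.03. Among pairs with Pearson r over 0.85 across the 15 arrays, the most alike over the 5 group means were ugt-29 and ugt-39 (r = 0.999, and 0.969 over the 15 arrays). The probe set of ugt-29 carries the mark for possible binding of related transcripts, whose part in this likeness was not tested. Next to each other in the genome, gst-31 and gst-39 had r = 0.967 over 5 means and 0.965 over 15 arrays. Across the families, gst-10 and ugt-22 had r = 0.985 and 0.941. Arrays share worms and groups, so these r are descriptions and carry no test.

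Of the genes around these enzymes, the ABC transporters of the mrp and pgp families had the most calls. Of 20 measured, 5 were called higher on rapamycin in N2 and 0 lower, against 8.41% of all probe sets called in either direction, among them pgp-8 (1.80, SE 0.36, adjusted p = 0.038), pgp-14 (1.28, SE 0.53, adjusted p = 0.152) and pgp-3 (1.27, SE 0.31, adjusted p = 0.0524). In eat-2 none of the 20 was called on rapamycin, though 7 passed the adjusted p, against 13.8% of all probe sets. In the interaction 1 was called higher and 6 lower, against 13.7% of all, with -2.14 (SE 0.48, adjusted p = 0.0119) for pgp-8. The call of pgp-14 in N2 was lost without N2 control 1 or 3 or any rapamycin array. On allantoin it was called lower (-2.17, SE 0.61, adjusted p = 0.236). Rapamycin against allantoin called 6 higher and 3 lower, against 20.4% of all, with 3.45 (SE 0.28, adjusted p = 1e-05) for pgp-14. Of 20 genes of glutathione supply and use, gpx-3, a glutathione peroxidase, was called lower on allantoin (-1.70, SE 0.47, adjusted p = 0.236) and higher on rapamycin than on allantoin (1.36, SE 0.23, adjusted p = 0.00087). The kappa-class transferase gstk-1 was called higher on rapamycin in eat-2 (1.06, SE 0.11, adjusted p = 0.00421, not called without eat-2 control 2), lower on rapamycin than on allantoin in N2 (-1.47, SE 0.1, adjusted p = 4.72e-06) and higher in the interaction (1.92, SE 0.4, adjusted p = 0.00933). Of 13 regulators, the SKN-1 gene among them, the called gene was elt-3, a GATA factor of the hypodermis, higher on rapamycin than on allantoin (1.28, SE 0.17, adjusted p = 0.000184). Neither of the 2 genes of UDP-glucuronate supply was called in any comparison, though both passed the adjusted p between the drugs.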

How the data were processed

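The authors' deposited values are log2 probe set signals, made with RMA (background correction, quantile normalization and summary of probes) in the Affymetrix Expression Console, per the labels and the study's methods. Tool versions are not given in the sources used here. The table holds 22625 probe sets on 15 arrays, with array medians of 6.794 to 7.055. The 77 control probe sets were left out, 22548 were tested, and no value was changed. Arrays give no count of molecules, so their number, 3 in each group, limits the precision.

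Symbols came from GEO's platform annotation and were matched to the current gene table (WBcel235), in which all 107 members were found and 0 had a changed symbol. The family table there holds 114 genes. No sequences were printed, since none were given for these genes.

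Each pair of groups was fitted on its own 6 arrays, and the interaction on 12, with limma 3.58.1 in R 4.3.3 (lmFit and eBayes, two-sided). SE is that of the fit, and SD is over 3 arrays. The call (p under 0.05 and over 2-fold) uses the study's cut-offs with the p of limma, and Benjamini-Hochberg adjustment ran over all probe sets. The fit was tested on simulated data first. Other settings were 1 fit of all arrays, median centring, cyclic loess, no dim probe sets, the replicate number as a block, an unmoderated test, the mean of a gene's probe sets, and each array left out.

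Members, marker lists and pathway lists were chosen with earlier results of these data known. Genes named are, for each comparison and family, up to 3 called members each way with the largest change and arrays that do not overlap. Added to them are the 3 members of each family with the highest mean, gst-4, gst-1, gst-10, gst-42, gsto-1 and ugt-22, every member with an adjusted p under 0.05 in the interaction, and up to 3 called genes of each pathway list. Other genes are named to account for a count or a run, and were picked with their values in view.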

Additional observations from a re-analysis of the deposited data

Results flagged for a closer look

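For 21 members the rapamycin change differed between the strains, by the interaction in limma at an adjusted p under 0.05 over all probe sets. The values are the change in eat-2 minus the change in N2 on the log2 scale, not differences in level between the strains. Of all probe sets, 24.4% passed the same test. For the gst family they were -1.56 in gst-22 and 0.82 in gst-28. The rapamycin change was lower in eat-2 than in N2 for ugt-57 (-2.91), ugt-8 (-1.81), ugt-51 (-1.65), ugt-39 (-1.52), ugt-50 (-1.52), ugt-66 (-1.50), ugt-33 (-1.22), ugt-9 (-1.14), ugt-36 (-0.99), ugt-59 (-0.82) and ugt-15 (-0.53). It was higher in eat-2 than in N2 for ugt-63 (1.98), ugt-46 (1.54), ugt-47 (1.03), ugt-64 (1.01), ugt-12 (1.00), ugt-24 (0.75), ugt-61 (0.56) and ugt-45 (0.45). Adjusted p-values ran from 0.000602 (ugt-57) to 0.0491 (ugt-9). Under other settings or with 1 array left out, some of these genes no longer passed. The adjusted p reached 0.0843 in ugt-36, 0.103 in ugt-45 and 0.107 in ugt-9. Groups of 3 arrays are too small for a test of single outlying arrays.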

How the results depend on the processing

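The numbers of called genes moved by over 1.5 times under some settings. In the unmoderated test there were 3 gst and 1 ugt genes on allantoin, 2 gst genes on rapamycin in N2, 0 gst genes in eat-2 against N2 and 1 gst gene in the interaction. Over all probe sets that test called 315, 1486, 198 and 2874 in the same order. The main fit called 913, 1897, 342 and 3081. In eat-2 against N2, a single fit of all arrays gave 5 gst genes (447 of all probe sets). Cyclic loess gave 1 gst and 1 ugt gene there (330 of all). Median centring gave 4 gst genes in the interaction (3313 of all probe sets). With 1 array left out, the number of gst genes was 2 to 8 on allantoin, 2 to 6 on rapamycin in N2, 0 to 6 in eat-2 against N2, 4 to 6 on rapamycin in eat-2, 8 to 11 on rapamycin against allantoin and 1 to 8 in the interaction. For ugt it was 0 to 6, 10 to 15, 2 to 5, 5 to 9, 17 to 19 and 13 to 19 in the same order. Over all 22548 probe sets it was 337 to 2047, 1378 to 3082, 196 to 1144, 621 to 764, 4557 to 4753 and 2448 to 4272. At the adjusted p, a single fit of all arrays passed 4 gst and 9 ugt genes on rapamycin in eat-2 (15 and 18 in the separate fit). The unmoderated test passed 6 and 5 there and 12 ugt genes in the interaction (19). Median centring passed 5 gst genes in the interaction (2). Over all probe sets the single fit passed 1980 and the unmoderated test 928 on rapamycin in eat-2 (3118). In the interaction the unmoderated test passed 3778 of all and median centring 6965 (5507). The causes were not tested.

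The replicate numbers of the titles were checked as a pairing. Same-numbered arrays correlated at -0.228 to 0.454, and in 0 of 5 comparisons did all 3 pairs exceed 0.1. With the replicate number as a block, 1 ugt gene was called on allantoin and 5 gst genes in eat-2 against N2. Of all probe sets 898 and 466 were called in these comparisons. At the adjusted p, 0 gst and 4 ugt genes passed on rapamycin in N2 (2 and 8 without the block), and 10 gst and 13 ugt genes in eat-2 (15 and 18). Over all probe sets, calls at the adjusted p on rapamycin went from 2116 to 156 in N2 and from 3118 to 1609 in eat-2.

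Over all probe sets, a single fit of all arrays passed 2519 at the adjusted p on allantoin (0 in the separate fit), 374 in eat-2 against N2 (9) and 7785 on rapamycin in N2 (2116). Median centring moved the median change from 0.048 to 0.149 on allantoin, from -0.018 to -0.123 on rapamycin in N2, from -0.068 to -0.273 on rapamycin against allantoin and from 0.044 to 0.228 in the interaction. It moved the share of calls that were higher from 22% to 33.8% on allantoin, 61.3% to 50.1% on rapamycin in N2, 37.5% to 48.4% on rapamycin in eat-2, 58.3% to 42.1% on rapamycin against allantoin and 38.4% to 56.7% in the interaction.

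Only changes that were not called turned sign. Median centring gave 0.025 for gst-1 on allantoin. Cyclic loess gave -0.019 for gst-10 on allantoin, 0.054 for gst-1 on rapamycin in N2, 0.196, 0.108 and 0.065 for gst-1, gst-42 and gst-7 on rapamycin against allantoin, and 0, -0.068 and -0.055 for gst-1, gst-42 and gst-5 in the interaction. Others did so with 1 array left out. On allantoin in N2 the change ran from -0.944 to 0.199 in gst-4, -0.979 to 0.34 in ugt-22, -0.186 to 0.063 in gst-1, -0.378 to 0.001 in ugt-25, -0.639 to 0.585 in gst-10, -0.039 to 0.679 in gst-42, -0.135 to 0.943 in ugt-26 and -0.341 to 0.428 in ugt-29. On rapamycin in N2 the change ran from -0.203 to 0.047 in gst-1, -0.212 to 0.931 in gst-4, -0.237 to 0.481 in gst-42, -0.163 to 0.684 in gsto-1 and -0.348 to 0.698 in gst-5. In eat-2 against N2 the change ran from -0.71 to 0.059 in ugt-29 and -0.341 to 0.377 in gst-42. On rapamycin in eat-2 the change ran from -0.167 to 0.016 in gst-7. On rapamycin against allantoin the change ran from -0.048 to 0.009 in gst-1. In the interaction the change ran from -0.105 to 0.613 in gst-42, -0.368 to 0.478 in gsto-1, -0.13 to 1.189 in ugt-22, -0.018 to 1.059 in ugt-26 and -0.339 to 0.707 in gst-5.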
